A study of Mus musculus with 9 samples.

Results

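The RNA of intermediate monocytes was compared with that of classical monocytes, both grown in vitro, over all genes with enough counts to be tested. The members are the 6 libraries whose sample titles name these subsets, 3 of intermediate monocytes (intMo) and 3 of classical monocytes (cMo, labelled conventional monocytes), of 9 libraries in the series. The other 3 libraries hold patrolling monocytes (pMo) and are not compared here. They entered the filter on low counts, the scaling and the estimate of the spread between libraries. Every library is labelled as primary cells of wild-type (wt) C57BL/6 background with an in vitro source, and within each subset the libraries are numbered 0, 1 and 2. By the title of the series, patrolling cells were derived from bone marrow in cultures with OP9-DLL1, a mouse stromal line that presents the Notch ligand Delta-like 1, while the design text lists the classical subset a second time and leaves out the patrolling one. No source used here gives the age of the animals, the culture time, the gates that defined each subset or the state of the feeder cells at harvest. Nor is it said whether the libraries of a subset are separate cultures or animals, so p-values measure only the spread between these libraries, which may be technical.

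Monocytes are circulating phagocytes that arise from progenitors in the bone marrow. In mice, classical monocytes carry high Ly6C and the chemokine receptor CCR2 and enter inflamed tissue, where they can become macrophages or dendritic cells. Patrolling monocytes carry low Ly6C, survey the vessel wall and depend on the nuclear receptor NR4A1, and Notch signals favour their formation from classical cells. Intermediate monocytes stand between these subsets in surface phenotype and are commonly set apart from both by class II major histocompatibility complex (MHC) and Ly6C.

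The 6 libraries held between 18455116 and 29583161 estimated counts, and levels are given in CPM, estimated counts relative to library sizes that were scaled with TMM (trimmed mean of M-values). Of 46517 genes listed, 14059 passed the filter on low counts. The first principal component of the 6 libraries took 66.8% of the variance and placed cMo from -80.86 to -56.79 and intMo from 48.53 to 98.14. Library 0 stood apart in both subsets. Single libraries were compared over 10350 genes with a mean of 5 CPM or more in cMo or intMo, with folds taken from CPM plus 1. Of these, intMo 0 was at least 2-fold below both other intMo libraries for 549 genes and at least 2-fold above both for 176. The corresponding numbers for cMo 0 were 337 and 235, while each of the other 4 libraries had at most 22 in either direction. Library 0 was also the least alike among pMo libraries. Its log2 CPM correlated at 0.9748 and 0.9691 with pMo 1 and pMo 2, which correlated at 0.9899 with each other. Deviations from the subset means correlated at 0.588 between intMo 0 and pMo 0. The value was 0.179 between cMo 0 and pMo 0 and 0.0657 between cMo 0 and intMo 0. The counts that lead each paragraph were also repeated with libraries 1 and 2 alone. Where a lost call or a moved count is given with its settings, an adjusted p covers the settings named. The results of a fit with the library number as a block are gathered in the closing section. Long noncoding RNAs were close to absent from the table, since 6489 of 6586 such rows were listed at 0 in every library of the series, and only 44 were tested.

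A total of 1966 genes (14% of those tested) were higher and 1467 genes (10.4%) were lower in intMo at an adjusted p under 0.05 in edgeR's quasi-likelihood test. The increases were larger than the decreases. The median log2 fold change, always given as intMo over cMo with its standard error, was 1.87 among genes called higher and -0.94 among genes called lower, against -0.0083 over all genes tested. A change of at least 3 on the log2 scale was called for 560 higher and 47 lower genes. The libraries of the 2 subsets did not overlap for 41.3% of all genes tested, in 21.2% with intMo higher and in 20.1% with intMo lower. The number of lower calls depended on single libraries: it was 950 without cMo 0, 845 without intMo 0 and 832 without intMo 2. It was 1013 without pMo 1, 1078 without pMo 2 and 1357 at most when any 1 of the 9 libraries was left out. The corresponding number of higher calls stayed between 1492 and 1932. With only the 6 cMo and intMo libraries in the fit, 782 genes were called lower and 1431 higher.

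**Figure D1:**
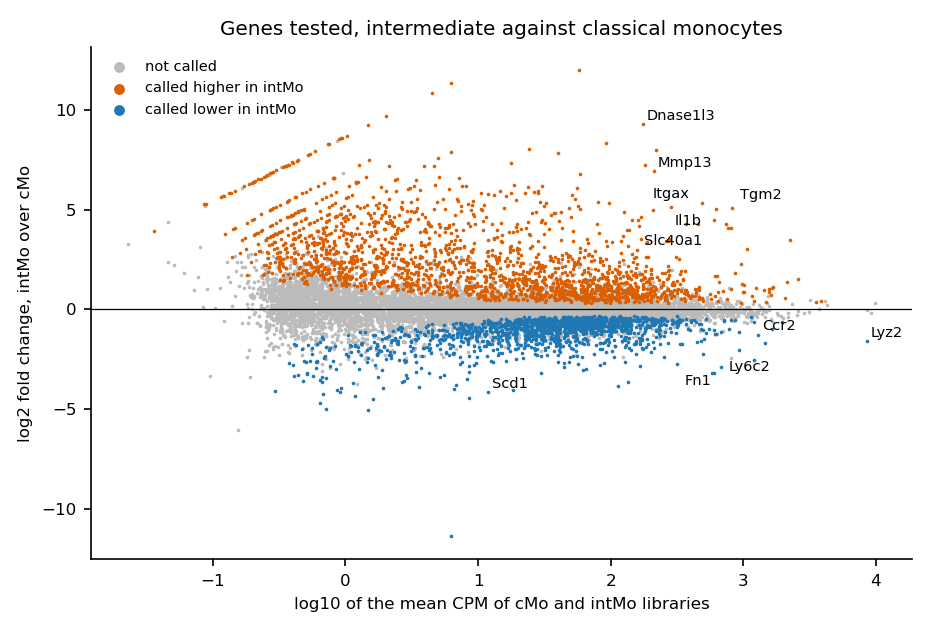
Each point is a gene, with the log10 of its mean CPM over the 6 libraries on the x axis and its log2 fold change (intMo over cMo) on the y axis. Orange points were called higher (1966 genes), blue points lower (1467 genes) and grey points not called, and the genes called higher reach larger fold changes than those called lower. The slanted rows of points at low CPM are genes with 0 or few counts in 1 subset, whose fitted fold depends on the prior count.

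The 5 label markers differed between the subsets in the direction that the labels imply. They were chosen with earlier results of these libraries known, so they are not an independent check of the labels. Itgax, which encodes the integrin CD11c, held 28.3, 24.4 and 18.03 CPM in cMo libraries 0, 1 and 2 and 1155, 803 and 931 CPM in intMo libraries 0, 1 and 2 (the order kept throughout), a log2 fold change of 5.35 ± 0.24 (adjusted p = 6.6e-06). Every intMo library was far above every cMo library. Il1b, the gene of interleukin 1 beta, rose from 30.7, 37.3 and 42.7 CPM to 1549, 1178 and 939 CPM, by 5.05 ± 0.24 (adjusted p = 6.6e-06). Dnase1l3, a secreted DNase that cuts chromatin in dying cells, lay at 0.432, 0.773 and 0.432 CPM in cMo and at 463, 286 and 299 CPM in intMo, a change of 9.31 ± 0.33 (adjusted p = 3e-06). Its gene is at chr14:7964533-7994573 in GRCm38. Mean levels in pMo were 1727 CPM for Itgax, 1457 CPM for Il1b and 256 CPM for Dnase1l3, so these genes were not particular to intMo. Ccr2 held 1060.5, 1969.8 and 2424 CPM in cMo and 666, 899 and 717 CPM in intMo, with a fold change of -1.26 ± 0.28 (adjusted p = 0.012) and a transcript that stayed abundant in intMo. Ly6c2 held 1038, 1129.5 and 1401 CPM in cMo and 24.5, 256 and 207 CPM in intMo, with no overlap but with intMo 0 far below the other intMo libraries. The fold change was -2.87 ± 0.90 (adjusted p = 0.047), and the call was lost without cMo 0, cMo 1, cMo 2, intMo 0, intMo 1, intMo 2, pMo 1 or pMo 2 and with no filter on low counts (adjusted p up to 0.118). Ly6c1, a near-identical neighbour of Ly6c2 that can share its reads, was at most 4.35 CPM in any of the 6 libraries, and the split of reads between them is uncertain.

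The largest increases among well-expressed genes fell on genes that were close to silent in classical monocytes. Apol7c, a member of the apolipoprotein L family, had 2 counts in all 3 cMo libraries and 7917 in intMo, which is 0, 0.0352 and 0.036 CPM against 169, 97.6 and 81.97 CPM. The ratio was 4590-fold with an exact 95% counting interval from 1270 to 37900, which covers counting error only (adjusted p = 8.2e-06). The related genes Apol7b and Apol7e lay under 2 CPM in all 6 libraries, and reads shared within the family may be split between them. Asb2, a subunit of a ubiquitin ligase that targets filamins and a known Notch target, rose from 0, 0.703 and 0.972 CPM to 245, 144 and 159.7 CPM, by 8.34 ± 0.70 (adjusted p = 0.00014, log2 fold change 8.99 without cMo 2). Both subsets were well apart in every library.

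Of the other genes with the largest increases, several encode secreted or matrix proteins. Adamdec1, a secreted metalloproteinase of gut macrophages, rose from 3.095, 0.844 and 1.296 CPM to 478, 465 and 379 CPM, by 7.98 ± 0.46 (adjusted p = 1.8e-05, log2 fold change 8.68 without cMo 0). Mmp13, a collagenase, rose from 0.756, 4.92 and 4.68 CPM to 560.5, 385 and 312 CPM, by 6.92 ± 0.65 (adjusted p = 0.00023). Neither gene showed overlap between the subsets. Spon1, an extracellular matrix protein, held 0.504, 0.387 and 0.144 CPM in cMo and 103, 65.5 and 70.3 CPM in intMo, a change of 7.83 ± 0.39 (adjusted p = 7.8e-06). The collagen genes Col6a1 (6.202 ± 0.74, adjusted p = 0.00073, 5.26 without intMo 0) and Col3a1 (6.16 ± 0.86, adjusted p = 0.0014, 7.54 without cMo 0 and 5.31 without intMo 0) and Pxdc1 (8.03 ± 0.73, adjusted p = 0.00021, 7.31 without intMo 0) were also among the 12 largest increases. For all 3, intMo 0 was the highest library. The level in intMo 0 was 118 CPM for Col6a1 against 26.2 and 35.9 CPM in the other intMo libraries.

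Signalling genes completed the set of largest increases. Rgs1, which speeds the shut-off of G proteins and restrains chemokine-driven migration, rose from 0.468, 3.06 and 3.82 CPM to 560.4, 301 and 232 CPM, by 7.21 ± 0.72 (adjusted p = 0.00032). Adgrg5, an adhesion G protein-coupled receptor, rose from 0.936, 0.844 and 1.404 CPM to 189, 76.5 and 81.7 CPM, by 6.76 ± 0.49 (adjusted p = 6.3e-05). Both were higher in each intMo library than in any cMo library. Fosb, an immediate early gene of the AP-1 family, was high in 1 intMo library only. It held 2.66, 1.69 and 0.504 CPM in cMo and 298, 11.8 and 20.4 CPM in intMo. The pMo libraries, in the same order, held 236, 10.4 and 9.14 CPM, so library 0 was high there too. Its fold change of 6.08 ± 1.82 (adjusted p = 0.04) was 3.32 without intMo 0. Fosb was not called without cMo 0, cMo 1, cMo 2 or intMo 0 and with no filter on low counts (adjusted p up to 0.141). DESeq2 gave it a log2 fold change of 6.095 but no adjusted p, so there was no call there.

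**Figure D2:**
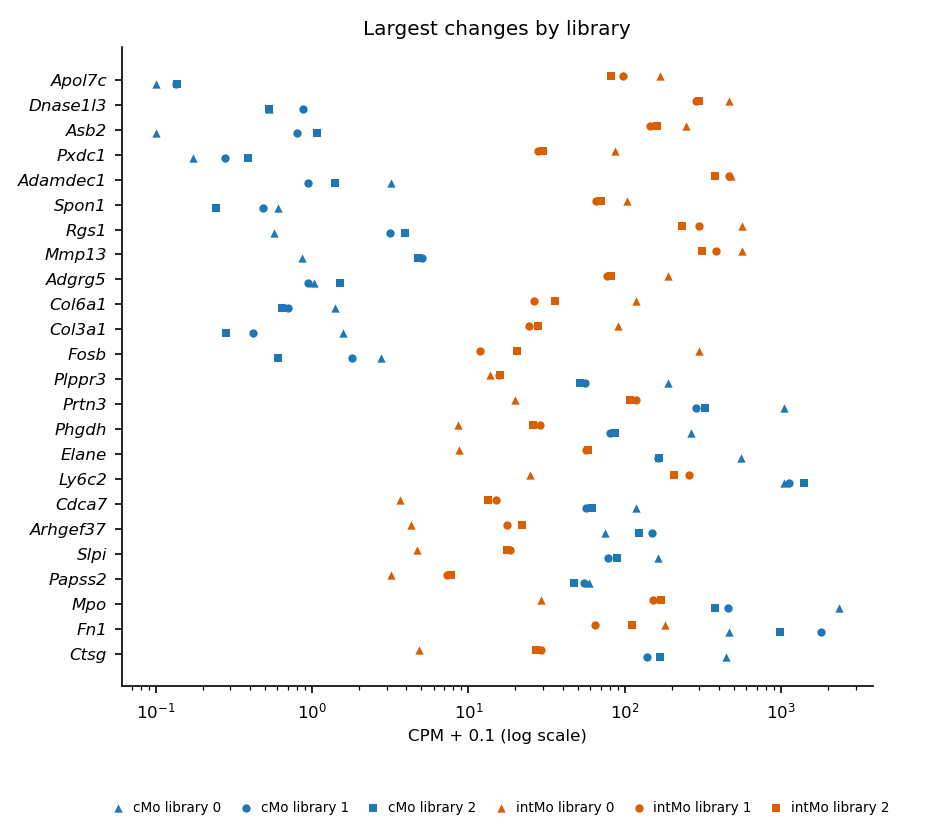
Level of each gene in each of the 6 libraries, as CPM plus 0.1 on a log axis, for the 12 largest increases (upper rows) and the 12 largest decreases (lower rows) among called genes that averaged 20 CPM or more and did not overlap. Blue marks are cMo and orange marks intMo, and triangles, circles and squares are libraries 0, 1 and 2. Library 0 lies away from the other 2 in both subsets for most of the genes that fell.

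The largest decreases fell on granule proteases of myeloid progenitors, on a matrix protein and on enzymes. Ctsg, which encodes the azurophil granule protease cathepsin G, fell from 448, 138 and 168 CPM in cMo to 4.72, 29.2 and 26.9 CPM in intMo, a log2 fold change of -3.62 ± 0.67 (adjusted p = 0.0057, log2 fold change -2.91 without cMo 0). The other azurophil granule genes Mpo (-3.18 ± 0.82, adjusted p = 0.023), Elane (-2.83 ± 0.72, adjusted p = 0.022) and Prtn3 (-2.74 ± 0.71, adjusted p = 0.023) were lower too, without overlap. cMo 0 held the highest level of all 4 and intMo 0 the lowest, and their summed level was 4376, 1046 and 1039.7 CPM in cMo and 62.1, 356 and 364 CPM in intMo. Without cMo 0 the fold changes were -1.84 for Mpo, -1.995 for Elane and -1.899 for Prtn3. The Mpo call was lost without cMo 0 or intMo 1, with no filter on low counts and with only the 6 libraries in the fit (adjusted p up to 0.0651), the Elane call without cMo 0, with no filter on low counts and with only the 6 libraries in the fit (adjusted p up to 0.069) and the Prtn3 call without cMo 0 or intMo 2, with no filter on low counts and with only the 6 libraries in the fit (adjusted p up to 0.0741). A fit with the library number as a block also ended the calls of Mpo (adjusted p = 0.0771), Elane (adjusted p = 0.0561) and Prtn3 (adjusted p = 0.0573). In bulk libraries, fewer cells of a type and less RNA per cell cannot be told apart.

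Fn1, the gene of fibronectin, fell from 466, 1799.7 and 981 CPM to 181, 64.9 and 112 CPM, a log2 fold change of -3.18 ± 0.57 (adjusted p = 0.0047). Its highest level was in cMo 1 and its lowest in intMo 1, while cMo 0 was the lowest of the cMo libraries and intMo 0 the highest of the intMo libraries. Papss2, which makes the activated sulfate donor, fell from 58.6, 55.2 and 47.5 CPM to 3.11, 7.22 and 7.59 CPM, a log2 fold change of -3.16 ± 0.32 (adjusted p = 0.00029). Slpi, an inhibitor of neutrophil proteases, fell from 163, 77.9 and 89.5 CPM to 4.56, 18.3 and 17.5 CPM, a log2 fold change of -3.02 ± 0.51 (adjusted p = 0.0037). Cdca7, a gene of cycling cells, changed by -2.89 ± 0.49 (adjusted p = 0.0037), and the phospholipid phosphatase-related gene Plppr3 by -2.71 ± 0.49 (adjusted p = 0.0052, log2 fold change -1.83 without cMo 0). Arhgef37, a guanine nucleotide exchange factor, went from 74.4, 149.6 and 123 CPM to 4.18, 17.5 and 21.9 CPM, a change of -2.98 ± 0.55 (adjusted p = 0.0055).

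Genes were also ranked by change in their share of all counts, which depends on transcript length as well as level. Only called genes without overlap were ranked, and unnamed gene models were left out. The 5 that gained most were Cd74, Csf1r, Ctsb, Nr4a1 and Tgm2. Cd74, the class II invariant chain, held 76.01, 527 and 506 CPM in cMo and 7414, 2445 and 2478 CPM in intMo, with intMo 0 far above the other intMo libraries. Its fold change was 3.48 ± 0.84 (adjusted p = 0.018, log2 fold change 2.74 without intMo 0). The Cd74 call was lost with no filter on low counts and with the library number as a block (adjusted p up to 0.0533). Csf1r, the receptor for macrophage colony-stimulating factor, rose from 862, 1701 and 1476 CPM to 5399.6, 2828 and 3280.4 CPM, by 1.51 ± 0.29 (adjusted p = 0.0068). Nr4a1, the nuclear receptor on which patrolling monocytes depend, rose from 233, 260.5 and 201 CPM to 2307, 1535 and 1927 CPM, by 3.05 ± 0.19 (adjusted p = 2.2e-05). Its levels varied little within a subset next to the gap between them. Tgm2, the transglutaminase that crosslinks proteins, rose from 48.2, 50.7 and 39.5 CPM to 2279.6, 1172 and 1315 CPM, by 5.11 ± 0.31 (adjusted p = 2.2e-05), and the lysosomal protease gene Ctsb by 1.397 ± 0.28 (adjusted p = 0.0075).

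By the same ranking, the 5 genes that lost the largest share were Lyz2, F13a1, Vim, Ahnak and Ptma. Lyz2, which encodes lysozyme, held 7506, 13371 and 17724 CPM in cMo and 2273, 5871 and 4627 CPM in intMo and changed by -1.596 ± 0.41 (adjusted p = 0.021), a call that was lost without cMo 2 or intMo 2 (adjusted p up to 0.0669). F13a1, the clotting factor XIII A chain, fell from 1393, 2223 and 2550.4 CPM to 137, 517 and 426 CPM, a log2 fold change of -2.51 ± 0.56 (adjusted p = 0.012). The F13a1 level in intMo 0 was less than those in intMo 1 and intMo 2, and all 3 were below every cMo library. Vim, the intermediate filament vimentin, changed by -1.698 ± 0.38 (adjusted p = 0.013). Ahnak, a large scaffold protein, changed by -2.03 ± 0.39 (adjusted p = 0.0064). Ptma, a small nuclear protein, changed by -0.99 ± 0.25 (adjusted p = 0.022), which was lost without cMo 0 or cMo 2 and with only the 6 libraries in the fit (adjusted p up to 0.0578).

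Gene lists were described by their counts and medians, without a test of the list, beside the 14% of all genes called higher and the 10.4% called lower. The lists were chosen with earlier results of these libraries known. Surface, secreted and signalling groups held larger shares of higher calls than all genes, and replication and sterol synthesis genes held larger shares of lower calls.

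**Figure D3:**
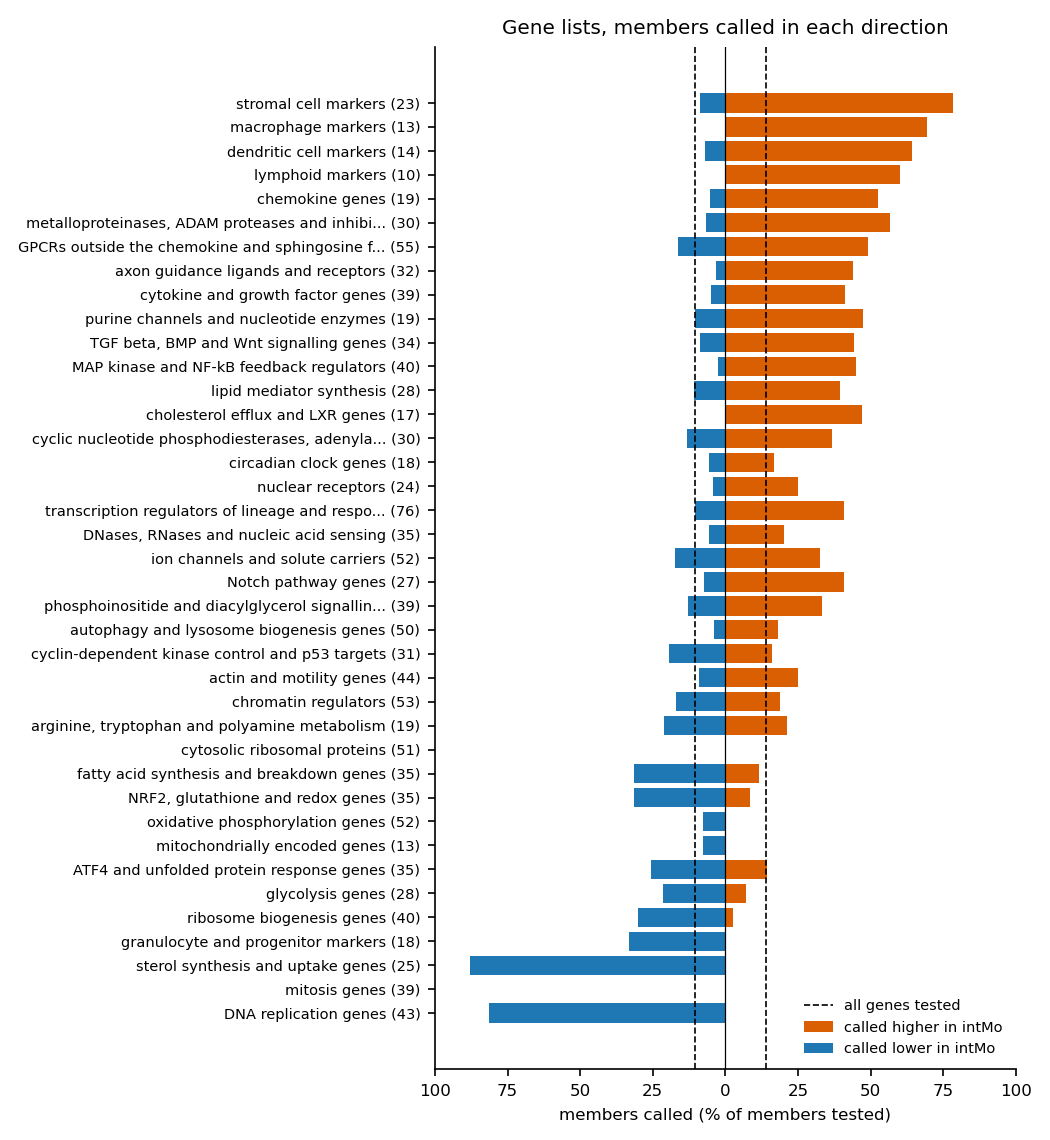
Share of the tested members of each list that was called higher (orange, to the right) or lower (blue, to the left) in intMo, ordered by the list's median log2 fold change, with the number of tested members in brackets for the lists described here that have at least 10 of them. Dashed lines mark the shares among all genes tested, 14% higher and 10.4% lower, and mitosis genes and ribosomal proteins have no call in either direction.

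Genes of cholesterol synthesis and uptake were lower in intMo. Cells make cholesterol from acetyl-CoA through the mevalonate pathway or take it up from lipoproteins, and the transcription factor SREBP-2 drives genes of both routes when sterols run low. Of 25 tested, 22 fell and none rose (0 at an unadjusted p under 0.05 by edgeR and 0 by DESeq2), with a median log2 fold change of -1.12. Acat2, the acetyl-CoA acetyltransferase at the head of the pathway, fell from 75.9, 28.6 and 37.01 CPM to 10.6, 18.1 and 13.3 CPM, a log2 fold change of -1.75 ± 0.35 (adjusted p = 0.0076). Sqle, the squalene epoxidase, fell from 144, 63.9 and 73.98 CPM to 23.2, 41.2 and 36.6 CPM, a log2 fold change of -1.48 ± 0.31 (adjusted p = 0.0097). Srebf2, which encodes SREBP-2, changed by -0.78 ± 0.24 (adjusted p = 0.04). Sqle and Srebf2 are named after their values were seen. The Srebf2 call was lost without cMo 0, cMo 1, intMo 0, intMo 1, pMo 0, pMo 1 or pMo 2, with only the 6 libraries in the fit and with libraries 1 and 2 alone (adjusted p up to 0.17). With the library number as a block, the Srebf2 call was lost too (adjusted p = 0.0595). Hmgcs1, Ebp and Pmvk were not called. The list's summed level was 3242, 1942 and 1883 CPM in cMo and 903, 1209 and 1235 CPM in intMo, without overlap and with cMo 0 highest and intMo 0 lowest. The number that fell was 14 without cMo 0, intMo 0 or intMo 2, and it was 20 with libraries 1 and 2 alone, where the median was -0.62.

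Genes of cholesterol efflux held only higher calls in this fit. The liver X receptors sense oxidised sterols and raise genes that move cholesterol out of the cell. Of 17 genes of this group tested, 8 rose and none fell (1 at an unadjusted p under 0.05 by edgeR and 0 by DESeq2). Nr1h3, which encodes liver X receptor alpha, rose from 1.19, 3.52 and 4.39 CPM to 70.9, 55.2 and 56.7 CPM, by 4.33 ± 0.40 (adjusted p = 0.00021). The cholesterol exporter gene Abca1 rose from 4.03, 29.5 and 19.4 CPM to 202, 61.5 and 95.5 CPM, by 2.76 ± 0.65 (adjusted p = 0.016, log2 fold change 3.35 without cMo 1 and 2.16 without intMo 0). For Abca1, intMo 0 was the highest and cMo 0 the lowest library. Abcg1, its partner in efflux, Apoe, the lipid carrier, and Rxra, the dimer partner of these receptors, changed by 1.696 ± 0.36 (adjusted p = 0.01), 2.301 ± 0.49 (adjusted p = 0.01) and 2.07 ± 0.34 (adjusted p = 0.0033) (named after their values were seen). Libraries 1 and 2 alone gave 8 higher calls. A lower call appeared without cMo 2 and with the library number as a block.

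Fatty acid genes held calls in both directions. Of 35 tested, 11 fell (31.4%) and 4 rose (11.4%), against 10.4% and 14% of all genes. Scd1, which makes monounsaturated fatty acids, fell from 42.97, 14.9 and 9.79 CPM to 1.07, 1.53 and 1.23 CPM, a log2 fold change of -4.14 ± 0.60 (adjusted p = 0.0018, log2 fold change -3.27 without cMo 0). Fads2, a desaturase of polyunsaturated fatty acids, fell from 132, 67.6 and 52.2 CPM to 6.49, 14.9 and 18.6 CPM, a log2 fold change of -2.65 ± 0.43 (adjusted p = 0.003). In both, cMo 0 was the highest library and the subsets did not overlap. The lipid-binding protein gene Fabp5 (0.94 ± 0.26, adjusted p = 0.027) and the lysosomal lipase gene Lipa (0.75 ± 0.19, adjusted p = 0.02) were higher, and their calls were lost without cMo 0, cMo 1 or intMo 0 (adjusted p up to 0.0816) and without intMo 0 and with only the 6 libraries in the fit (adjusted p up to 0.0596), respectively. The number of members that fell was 4 without intMo 0, 5 without cMo 0, intMo 1, intMo 2 or pMo 1, 6 without pMo 2, 7 without cMo 1, 5 with only the 6 libraries in the fit, 6 with no filter on low counts and 7 with libraries 1 and 2 alone, and the number that rose was 1 without intMo 0, 2 without cMo 1, 2 with only the 6 libraries in the fit and 7 with libraries 1 and 2 alone.

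Genes of DNA replication were lower in intMo, and mitosis genes shared the direction but did not pass the test. Replication starts from origins bound by the origin recognition complex, on which CDC6 and CDT1 load the MCM2-7 helicase, and E2F factors drive many of these genes at the entry into S phase. Of 43 replication genes tested, 35 fell and none rose (0 at an unadjusted p under 0.05 by edgeR and 0 by DESeq2), with a median log2 fold change of -1.36. All 43 had lower levels in every intMo library than in any cMo library, where 20.1% of all genes tested did. The number that fell was 21 without cMo 0 and 23 with only the 6 libraries in the fit, and it was 38 with libraries 1 and 2 alone. Orc1, the largest subunit of the origin recognition complex, fell from 16.7, 7.63 and 8.39 CPM to 1.07, 3.098 and 2.92 CPM, a log2 fold change of -2.19 ± 0.44 (adjusted p = 0.0074). Cdc6 fell from 60.3, 33.6 and 35.7 CPM to 5.52, 13.5 and 12.7 CPM, a log2 fold change of -2.03 ± 0.39 (adjusted p = 0.0061). Both were highest in cMo 0 and lowest in intMo 0. The helicase genes Mcm6 (-1.74 ± 0.35, adjusted p = 0.0086), Mcm5 (-1.62 ± 0.48, adjusted p = 0.039) and Mcm7 (-1.55 ± 0.43, adjusted p = 0.031) were lower too (named after their values were seen). However, the Mcm5 call was lost without cMo 0, cMo 1, cMo 2, intMo 2, pMo 0, pMo 1 or pMo 2, with no filter on low counts and with only the 6 libraries in the fit (adjusted p up to 0.117). The Mcm7 call was lost without cMo 0, pMo 1 or pMo 2, with no filter on low counts and with only the 6 libraries in the fit (adjusted p up to 0.0984). With the library number as a block, the calls of Mcm5 (adjusted p = 0.0563) and Mcm7 (adjusted p = 0.0621) were lost too.

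The starts of these genes were read for the motif of E2F factors, because the list moved in 1 direction. TTTCCCGC or TTTGGCGC, or either reverse complement, stood within the 250 bases before the start in 6 of 42 windows of replication genes (14.3%), against 427 of 32851 windows of all genes (1.3%). Windows came from RefSeq's promoter table for GRCm38.p6, which held 34 of the 43 genes, and genes can have several windows. For genes that fell the number was 4 of 36 windows (11.1%), and for those not called 2 of 6. Of the 6 genes with the motif, Mcm6, Mcm7, Mcm5 and Cdc6 fell, and Gins3 and Pola1 were not called. The windows of the 4 that fell are given 5′ to 3′ on the strand of the gene, with the motif or its reverse complement in capitals, at chr1:128359706-128359955 (minus strand) for Mcm6, chr5:138171884-138172133 (minus strand) for Mcm7, chr8:75109259-75109508 (plus strand) for Mcm5 and chr11:98907901-98908150 (plus strand) for Cdc6.
Mcm6: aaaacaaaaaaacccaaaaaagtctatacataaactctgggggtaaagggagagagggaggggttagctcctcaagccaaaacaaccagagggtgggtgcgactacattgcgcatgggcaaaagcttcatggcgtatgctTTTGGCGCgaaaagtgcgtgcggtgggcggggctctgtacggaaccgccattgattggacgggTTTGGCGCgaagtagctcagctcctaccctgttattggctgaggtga
Mcm7: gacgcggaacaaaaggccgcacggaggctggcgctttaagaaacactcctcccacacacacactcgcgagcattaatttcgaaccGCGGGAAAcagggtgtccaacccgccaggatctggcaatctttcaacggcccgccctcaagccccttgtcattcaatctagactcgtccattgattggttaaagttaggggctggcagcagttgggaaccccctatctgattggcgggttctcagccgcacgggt
Mcm5: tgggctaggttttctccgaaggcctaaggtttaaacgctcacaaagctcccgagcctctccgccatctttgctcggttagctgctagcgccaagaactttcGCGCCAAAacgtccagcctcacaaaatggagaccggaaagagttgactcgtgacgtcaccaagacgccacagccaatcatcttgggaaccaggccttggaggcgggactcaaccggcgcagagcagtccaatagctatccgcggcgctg
Cdc6: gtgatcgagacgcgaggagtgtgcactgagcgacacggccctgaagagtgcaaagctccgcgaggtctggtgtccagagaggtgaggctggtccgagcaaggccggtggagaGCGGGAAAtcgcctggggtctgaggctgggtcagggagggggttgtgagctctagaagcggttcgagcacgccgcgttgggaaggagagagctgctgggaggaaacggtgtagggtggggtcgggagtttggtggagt
The Mcm6 window holds the motif at 2 places, both reading TTTGGCGC. That of Mcm5 holds the reverse complement of TTTGGCGC, and those of Mcm7 and Cdc6 hold the reverse complement of TTTCCCGC. A match in these letters is a description of the sequence and does not show binding.

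Of 39 mitosis genes tested, none was called in either direction by edgeR, although the median was -1.12. In every intMo library, 34 were lower than in any cMo library, where 20.1% of all genes tested were. At an unadjusted p under 0.05, edgeR had 11 of them lower and 0 higher, and DESeq2 called 9 lower at its adjusted p. Mki67, the proliferation marker with the highest counts of the list, held 652, 1011 and 988 CPM in cMo and 93.1, 492 and 555 CPM in intMo, a fold change of -1.22 ± 0.58 (adjusted p = 0.16). The level in intMo 0 was far below that in the other intMo libraries. The list's summed level was 6208, 5549.9 and 6122 CPM in cMo and 836, 3935 and 3660.0 CPM in intMo. With libraries 1 and 2 alone, 31 members fell and 1 rose, with a median of -0.57, and 1 fell without intMo 0. With the library number as a block, 2 fell.

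Lists of growth and energy metabolism had medians nearer to 0 than those of sterol, replication and mitosis genes. Of 40 ribosome biogenesis genes, 12 fell (30%) and 1 rose (2.5%), against 10.4% and 14% of all genes, with a median of -0.65. Dkc1, the pseudouridine synthase of ribosomal RNA, fell from 67.9, 38.6 and 47.3 CPM to 15.2, 24.1 and 20.1 CPM, a log2 fold change of -1.37 ± 0.24 (adjusted p = 0.004). Heatr1, a nucleolar factor of ribosomal RNA transcription, moved the other way, from 127, 99.4 and 78.8 CPM to 187, 206 and 213 CPM, by 0.99 ± 0.18 (adjusted p = 0.0047). The number that fell was 5 without intMo 2, 6 without intMo 0, 7 without intMo 1 and 6 with only the 6 libraries in the fit. None of 51 cytosolic ribosomal protein genes was called, with a median of -0.08, while at an unadjusted p under 0.05 edgeR had 1 higher and 2 lower, and DESeq2 called 1 lower at its adjusted p. Rplp0, the most counted of them, held 2713, 2341 and 2905 CPM in cMo and 2555, 2688 and 2302 CPM in intMo, which overlap. Leaving out cMo 1 gave 3 lower calls.

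Oxidative phosphorylation held 4 lower calls among 52 genes, below the share of all genes, and no higher one (1 at an unadjusted p under 0.05 by edgeR and 0 by DESeq2). The number of lower calls was 0 without intMo 0 or intMo 2, 1 without cMo 0, cMo 2, pMo 1 or pMo 2, 2 without intMo 1, 11 without cMo 1, 0 with only the 6 libraries in the fit, 1 with libraries 1 and 2 alone, 2 with upper quartile scaling or with no filter on low counts and 9 by DESeq2, and that of higher calls 1 without cMo 0 and 1 with upper quartile scaling, with a filter at 1 CPM or with libraries 1 and 2 alone. Of 28 glycolysis genes, 6 fell (21.4%) and 2 rose (7.14%), against 10.4% and 14% of all genes. Slc16a1, the lactate and monocarboxylate carrier, fell from 43.04, 13.9 and 13.97 CPM to 5.897, 5.14 and 4.51 CPM, a log2 fold change of -2.19 ± 0.46 (adjusted p = 0.009, log2 fold change -1.43 without cMo 0), and Slc2a6, a hexose transporter of the lysosome, fell from 43.6, 70.3 and 67.5 CPM to 8.47, 16.1 and 17.9 CPM, a log2 fold change of -2.09 ± 0.31 (adjusted p = 0.0019). Pfkfb3, which makes an activator of glycolysis, was higher by 0.801 ± 0.21 (adjusted p = 0.024), and this call was lost without cMo 1, cMo 2 or intMo 0 and with only the 6 libraries in the fit (adjusted p up to 0.0707). Higher glycolysis calls numbered 1 without cMo 1, cMo 2 or intMo 0, 1 with only the 6 libraries in the fit and 4 with libraries 1 and 2 alone, and lower ones 3 with only the 6 libraries in the fit.

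**Figure D4:**
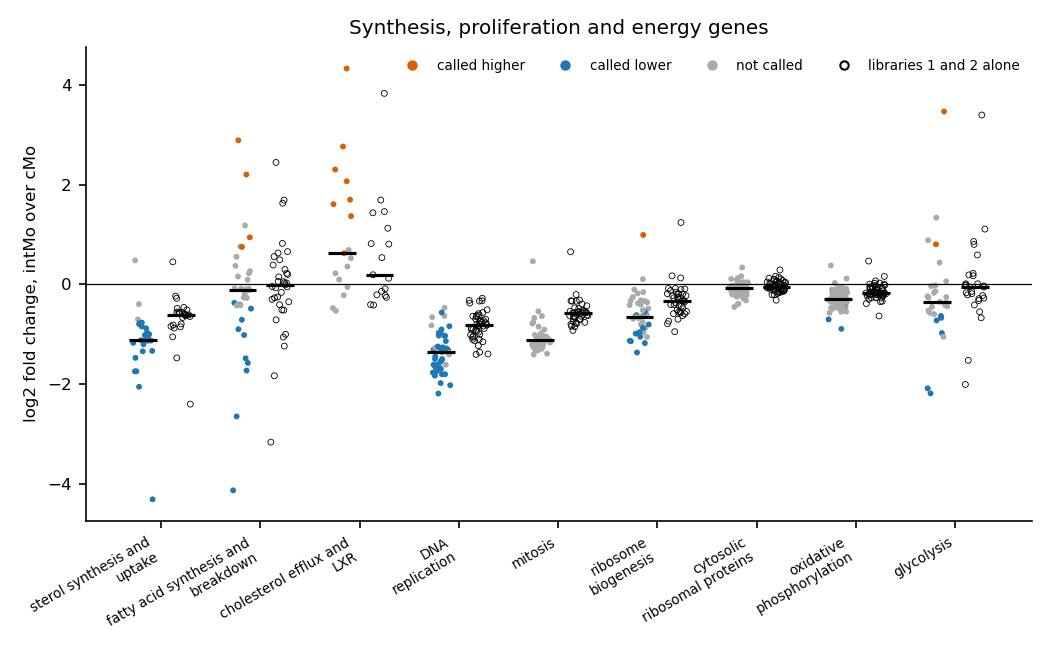
Log2 fold change (intMo over cMo) of each tested member of 9 lists. Filled points come from the fit to all libraries (orange called higher, blue called lower, grey not called), open points beside them come from libraries 1 and 2 alone, and black bars are medians. The medians of sterol, replication and mitosis genes lie below 0 in both fits and nearer to 0 with libraries 1 and 2 alone, while that of ribosomal proteins lies close to 0.

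Stress and redox genes held calls in both directions, beside 14% higher and 10.4% lower among all genes. Of 35 genes of the ATF4 and unfolded protein responses, 9 fell (25.7%) and 5 rose (14.3%). Phgdh, the first enzyme of serine synthesis, fell from 266, 80.3 and 86.1 CPM to 8.52, 28.5 and 25.8 CPM, a log2 fold change of -2.78 ± 0.56 (adjusted p = 0.0085, log2 fold change -1.99 without cMo 0). Slc7a11, the cystine importer, rose from 18.7, 10.8 and 8.21 CPM to 57.8, 85.9 and 106 CPM, by 2.73 ± 0.35 (adjusted p = 0.00098). In Slc7a11, intMo 0 was the lowest of the intMo libraries, unlike in most genes with large increases. The number of lower calls in this list was 3 without intMo 0, 4 without intMo 1, 5 without intMo 2 or pMo 1 and 3 with only the 6 libraries in the fit. Of 35 genes of NRF2, glutathione and redox control, 11 fell (31.4%) and 3 rose (8.57%). The glutathione transferase gene Mgst2 changed by -2.59 ± 0.54 (adjusted p = 0.0095, log2 fold change -1.75 without cMo 0), and Blvrb, a reductase of heme breakdown, rose from 20.9, 35.2 and 36.97 CPM to 188, 127 and 119.6 CPM, by 2.22 ± 0.26 (adjusted p = 0.00058). Lower calls numbered 2 without intMo 2, 4 without intMo 0, 5 without cMo 2, 7 without pMo 1 and 4 with only the 6 libraries in the fit, and higher calls 7 without cMo 0 and 9 with libraries 1 and 2 alone.

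Genes of proteases that remodel the extracellular matrix held more higher than lower calls. Metalloproteinases cut collagen and other matrix proteins, ADAM proteases shed ligands and receptors from the cell surface, and TIMP proteins inhibit both. Of 30 such genes tested, 17 rose and 2 fell, with a median of 1.46. Besides Adamdec1 and Mmp13, the membrane-type collagenase gene Mmp14 rose by 5.16 ± 0.48 (adjusted p = 0.00022, log2 fold change 4.56 without intMo 0) and the inhibitor gene Timp1 by 2.84 ± 0.61 (adjusted p = 0.01, log2 fold change 3.56 without cMo 0). Both are named after their values were seen. Adam15, a disintegrin protease, fell from 202, 209 and 162 CPM to 81.8, 54.2 and 61.2 CPM, a log2 fold change of -1.54 ± 0.20 (adjusted p = 0.00099). Mmp8, the neutrophil collagenase, changed by -1.99 ± 0.62 (adjusted p = 0.045), which was not called without cMo 0, cMo 1, cMo 2, intMo 2, pMo 0, pMo 1 or pMo 2, with no filter on low counts and with only the 6 libraries in the fit (adjusted p up to 0.109). With libraries 1 and 2 alone, 20 rose and 3 fell. The number that fell was 1 without cMo 0, cMo 1, cMo 2, intMo 2, pMo 1 or pMo 2 and 1 with no filter on low counts.

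Markers of stromal cells moved with these genes. Of 23 tested, 18 rose and 2 fell. The 2 that fell were Fn1, which monocytes also make, and Igfbp4 (-1.66 ± 0.19, adjusted p = 0.00053). Col5a2 rose from 0.252, 0.0352 and 0.144 CPM to 23.4, 9.08 and 10.01 CPM, by 6.58 ± 0.62 (adjusted p = 0.00021, log2 fold change 7.23 without cMo 0). Without Fn1 and Igfbp4, the summed level of the other 21 was 37.6, 27.98 and 26.1 CPM in cMo and 1166, 400.1 and 453 CPM in intMo, so intMo 0 held the most and no library of one subset overlapped the other. The stromal genes Dcn and Lum had 0 and 1 counts in the intMo libraries together. The part of stromal RNA in the changes of Spon1, Mmp13, Mmp14, Timp1 and the collagen genes was not tested.

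Receptors at the cell surface changed in both directions, with increases more frequent. Of 55 G protein-coupled receptor genes outside the chemokine and sphingosine families, 27 rose and 9 fell, with a median of 1.16. P2ry10, a receptor for lysophosphatidylserine, rose from 0.72, 0.703 and 0.432 CPM to 35.6, 14.7 and 11.1 CPM, by 5.03 ± 0.74 (adjusted p = 0.0018, log2 fold change 4.38 without intMo 0). Ffar1, a receptor for long-chain fatty acids, rose from 0.9, 1.12 and 0.864 CPM to 6.54, 23.6 and 31.99 CPM, by 4.42 ± 0.58 (adjusted p = 0.0012). intMo 0 was the highest intMo library for P2ry10 and the lowest for Ffar1. The leukotriene B4 receptor gene Ltb4r1 (-1.97 ± 0.52, adjusted p = 0.025) and the adhesion receptor gene Adgrg3 (-2.17 ± 0.68, adjusted p = 0.048, -1.12 without cMo 0) were lower, and both were highest in cMo 0. The Ltb4r1 call was lost without cMo 0 and with no filter on low counts (adjusted p up to 0.0797) and the Adgrg3 call without cMo 0, intMo 0, intMo 1, intMo 2, pMo 0, pMo 1 or pMo 2, with no filter on low counts, with a filter at 1 CPM and with only the 6 libraries in the fit (adjusted p up to 0.187). With the library number as a block, the Adgrg3 call was lost too (adjusted p = 0.119). Lower calls in this list numbered 4 without intMo 2, 5 without intMo 0 and 5 with only the 6 libraries in the fit.

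Enzymes and channels of extracellular nucleotides and genes of G protein and cyclic AMP signalling also held more higher than lower calls. In the purine group, 9 rose and 2 fell of 19 tested. Cd38, an ectoenzyme that consumes NAD, rose from 7.09, 1.79 and 1.87 CPM to 112, 66.8 and 56.5 CPM, by 4.45 ± 0.57 (adjusted p = 0.001, log2 fold change 5.41 without cMo 0). Bst1, its relative, moved in the opposite direction, from 40.2, 29.8 and 41.9 CPM to 16.2, 17.7 and 15.4 CPM, a log2 fold change of -1.18 ± 0.23 (adjusted p = 0.0062). The ectophosphodiesterase gene Enpp4 rose by 2.54 ± 0.23 (adjusted p = 0.00018). Lower calls in the purine group numbered 1 without cMo 0 or intMo 2. Among phosphodiesterases, adenylate cyclases and regulators of G protein signalling, 11 rose and 4 fell of 30 tested. Pde4b, which breaks down cyclic AMP, rose from 18.6, 30.1 and 31.6 CPM to 184, 122 and 115 CPM, by 2.39 ± 0.24 (adjusted p = 0.0003), and Prkar2b, a regulatory subunit of protein kinase A, fell from 60.3, 53.6 and 62.6 CPM to 15.01, 25.3 and 24.2 CPM, a log2 fold change of -1.45 ± 0.23 (adjusted p = 0.0025). Rgs14 changed by -0.91 ± 0.17 (adjusted p = 0.0048). Higher calls numbered 7 without intMo 2, pMo 1 or pMo 2 and 7 with only the 6 libraries in the fit, and lower calls 2 without cMo 0, cMo 2, intMo 0, intMo 1, intMo 2, pMo 1 or pMo 2 and 2 with upper quartile scaling, with no filter on low counts or with only the 6 libraries in the fit.

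Axon guidance genes, whose products steer cell movement in many tissues, held 14 higher calls and 1 lower call among 32 tested. Sema6d, a transmembrane semaphorin, rose from 0.432, 3.87 and 3.28 CPM to 117, 49.4 and 51.5 CPM, by 4.84 ± 0.78 (adjusted p = 0.0028). The semaphorin receptor gene Plxnb3 rose from 3.35, 3.41 and 3.204 CPM to 19.2, 12.5 and 11.4 CPM, by 2.11 ± 0.26 (adjusted p = 0.00083). The single gene that fell was Sema4a, a semaphorin of immune cells, from 236, 287 and 237 CPM to 66.4, 87.9 and 110.2 CPM, a log2 fold change of -1.52 ± 0.23 (adjusted p = 0.0019). Lower calls numbered 2 without cMo 2 or intMo 0, 2 by DESeq2 and 3 with libraries 1 and 2 alone or with the library number as a block. The subsets were separate for all 3 genes in every library.

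Cytokine, growth factor and chemokine genes were more often higher. Of 39 cytokine and growth factor genes, 16 rose and 2 fell. Besides Il1b, Pdgfb, a growth factor for stromal cells, rose from 0.18, 1.09 and 1.08 CPM to 75.8, 24.2 and 33.8 CPM, by 5.82 ± 0.89 (adjusted p = 0.0023, log2 fold change 5.21 without intMo 0). Tnfsf9, the ligand of 4-1BB, changed by -1.02 ± 0.32 (adjusted p = 0.048), which was lost without cMo 0, cMo 1, cMo 2, intMo 1, intMo 2, pMo 1 or pMo 2, with RLE size factors, with upper quartile scaling, with no filter on low counts, with a filter at 1 CPM and with only the 6 libraries in the fit (adjusted p up to 0.122). Named after their values were seen, Il10, an anti-inflammatory cytokine, rose by 2.28 ± 0.69 (adjusted p = 0.041), Il1rn, the interleukin 1 receptor antagonist, by 2.703 ± 0.23 (adjusted p = 0.00014), and Csf1, the ligand of the receptor encoded by Csf1r, by 2.599 ± 0.35 (adjusted p = 0.0012), while Tnf (-0.06 ± 0.24, adjusted p = 0.89) did not pass the test. The Il10 fold change was 3.11 without cMo 2, and its call was lost without cMo 1, intMo 0, intMo 1, intMo 2, pMo 0, pMo 1 or pMo 2 and with only the 6 libraries in the fit (adjusted p up to 0.0983). With the library number as a block, the Il10 call was lost too (adjusted p = 0.0528). Il12b had 1 count in the 3 cMo libraries together and 111 in intMo, a ratio of 129 with an exact 95% counting interval from 22.7 to 5130. Lower calls among cytokine genes numbered 1 without cMo 0, cMo 1, cMo 2, intMo 1, intMo 2, pMo 1 or pMo 2, 0 with a filter at 1 CPM and 1 with RLE size factors, with upper quartile scaling, with no filter on low counts or with only the 6 libraries in the fit.

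Of 19 chemokine genes, 10 rose and 1 fell. Cxcl2, which draws neutrophils, rose from 0.828, 2.64 and 3.92 CPM to 59.8, 26.1 and 25.6 CPM, by 3.91 ± 0.61 (adjusted p = 0.0024). Cxcl9, a ligand of CXCR3, rose from 0.108, 1.02 and 1.296 CPM to 13.2, 11.4 and 10.4 CPM, by 3.84 ± 0.59 (adjusted p = 0.0022). The gene that fell was Ccl9, from 207, 398 and 475 CPM to 92.3, 123 and 110.3 CPM, a log2 fold change of -1.73 ± 0.27 (adjusted p = 0.0024), and Ccl2 (0.93 ± 0.52, adjusted p = 0.23, named after its value was seen) did not pass the test. Cxcl1, with 0 counts in cMo, reached 196 in intMo and was at least 75.8-fold higher against a floor of 3 counts over the 3 cMo libraries. Libraries 1 and 2 alone gave 2 lower calls.

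Genes that shut down MAP kinase and NF-kB signals, many of which are themselves induced by those signals, held 18 higher calls among 40 and 1 lower call. Dusp5, a phosphatase of nuclear ERK, rose from 8.93, 7.17 and 6.98 CPM to 179, 135 and 141 CPM, by 4.3 ± 0.17 (adjusted p = 4.4e-06). Traf1, an adaptor of TNF receptors, rose from 0.648, 2.602 and 2.84 CPM to 32.5, 20.6 and 20.6 CPM, by 3.59 ± 0.45 (adjusted p = 0.00088). Both were separate in all libraries. Irak3, which restrains Toll-like receptor signals, was the single lower call (-0.65 ± 0.18, adjusted p = 0.032), and it was lost without cMo 1, cMo 2, intMo 0, intMo 1, pMo 1 or pMo 2 and with only the 6 libraries in the fit (adjusted p up to 0.0918). Lower calls numbered 0 without cMo 1, cMo 2, intMo 0, intMo 1, pMo 1 or pMo 2, 4 without cMo 0, 0 with only the 6 libraries in the fit and 4 with libraries 1 and 2 alone or by DESeq2. Enzymes of lipid mediators held 11 higher and 3 lower calls among 28. Ptgs2, the inducible cyclooxygenase, rose from 0.468, 1.58 and 2.09 CPM to 20.5, 35.6 and 28.9 CPM, by 4.35 ± 0.48 (adjusted p = 0.00048), and Hpgds, which makes prostaglandin D2, from 6.69, 23.1 and 28.9 CPM to 154, 117 and 104 CPM, by 2.67 ± 0.45 (adjusted p = 0.0034). Alox5ap, needed for leukotriene synthesis, changed by -0.71 ± 0.19 (adjusted p = 0.027), which was lost without cMo 1, cMo 2, intMo 0 or intMo 2 and with only the 6 libraries in the fit (adjusted p up to 0.0846). Lower calls among lipid mediator enzymes numbered 0 without intMo 2, 1 without intMo 0 and 1 with only the 6 libraries in the fit.

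Transcription regulators changed in large numbers. Of 76 regulators of lineage and response, 31 rose and 8 fell. Hes1, a repressor induced by Notch, rose from 1.44, 0.598 and 0.468 CPM to 54.8, 27.8 and 30 CPM, by 5.48 ± 0.51 (adjusted p = 0.00022, log2 fold change 6.12 without cMo 0). Spic, a factor of red pulp macrophages that responds to heme, rose from 7.38, 13.7 and 18.4 CPM to 381, 336 and 265 CPM, by 4.64 ± 0.32 (adjusted p = 4.5e-05). Both were separate in all libraries. Myb, a factor of hematopoietic progenitors, fell from 119.6, 43.2 and 45.2 CPM to 5.79, 14.6 and 13.1 CPM, a log2 fold change of -2.63 ± 0.46 (adjusted p = 0.0045, log2 fold change -1.98 without cMo 0). Klf4, needed for monocyte formation, fell from 129, 174 and 150.2 CPM to 56.2, 22.5 and 25.6 CPM, a log2 fold change of -2.12 ± 0.37 (adjusted p = 0.004). Unlike Myb, Klf4 was highest of the intMo libraries in intMo 0. Lower calls numbered 5 without intMo 1 and 5 with only the 6 libraries in the fit.

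Of 24 nuclear receptors, 6 rose (25%) and 1 fell (4.17%), against 14% and 10.4% of all genes. Besides Nr4a1 and Nr1h3, Pparg, a regulator of lipid handling in macrophages, rose from 1.19, 4.68 and 4.61 CPM to 39.8, 30.05 and 26.5 CPM, by 3.199 ± 0.46 (adjusted p = 0.0018). Rara, a retinoic acid receptor, changed by -0.73 ± 0.22 (adjusted p = 0.037), which was lost without cMo 1, cMo 2, intMo 0, intMo 1 or pMo 1 and with only the 6 libraries in the fit (adjusted p up to 0.105). With the library number as a block, the Rara call was lost too (adjusted p = 0.0524) and lower calls numbered 0. Lower calls numbered 0 without cMo 1, cMo 2, intMo 0, intMo 1 or pMo 1, 0 with only the 6 libraries in the fit and 2 with libraries 1 and 2 alone. Of 27 Notch pathway genes, 11 rose and 2 fell, Hes1 among the former. Nrarp, a feedback inhibitor that Notch induces, was at 1.08, 0.176 and 0.36 CPM in cMo and 1.93, 24.9 and 24.96 CPM in intMo, a change of 5.0 ± 0.94 (adjusted p = 0.006, log2 fold change 5.99 without cMo 0). Its level in intMo 0 was close to the highest cMo library, in contrast to Hes1, which was highest in intMo 0. The ligand gene Dll1, named after its value was seen, encodes the Notch ligand that OP9-DLL1 cells present, and it counts in both the Notch and the stromal list. Dll1 was at 1.19, 0.492 and 0.252 CPM in cMo and 37.04, 6.03 and 9.81 CPM in intMo, a change of 4.76 ± 0.86 (adjusted p = 0.005, log2 fold change 5.54 without cMo 0 and 3.62 without intMo 0), and intMo 0 again held the most. The part of feeder cell RNA in it was not tested. Numb, an inhibitor of Notch, changed by -0.495 ± 0.12 (adjusted p = 0.02), which was lost without intMo 0 and with only the 6 libraries in the fit (adjusted p up to 0.0675). Lower calls numbered 0 without intMo 0, 1 without cMo 1, cMo 2, intMo 1 or intMo 2, 0 with only the 6 libraries in the fit and 4 with libraries 1 and 2 alone. CGTGGGAA, a motif of the Notch partner RBPJ, or its reverse complement stood in 1 of 28 windows of Notch pathway genes (3.57%), against 209 of 32851 windows of all genes (0.636%).

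The 1 window with this motif belonged to Lfng, a glycosyltransferase that alters how Notch responds to its ligands. Lfng held 32.2, 38.1 and 29.2 CPM in cMo and 117, 76.99 and 91.95 CPM in intMo, a change of 1.52 ± 0.18 (adjusted p = 0.00067), and is named for the motif. Its window lies at chr5:140607091-140607340 (plus strand) in GRCm38.p6, with the motif in capitals.
Lfng: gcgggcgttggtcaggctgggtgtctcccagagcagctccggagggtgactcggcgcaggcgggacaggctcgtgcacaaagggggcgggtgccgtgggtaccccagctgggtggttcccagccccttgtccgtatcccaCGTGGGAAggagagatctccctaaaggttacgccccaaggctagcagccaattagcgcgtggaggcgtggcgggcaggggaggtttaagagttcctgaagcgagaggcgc
The motif lies 110 bases before the start, reading CGTGGGAA on the strand of the gene.

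Signals of TGF beta, BMP and Wnt held 15 higher and 3 lower calls among 34. Tcf7l2, a transcription factor of Wnt signalling, rose from 3.74, 4.18 and 3.64 CPM to 42.9, 23 and 27.1 CPM, by 3.01 ± 0.29 (adjusted p = 0.00026), and Tgfbr3, the co-receptor betaglycan, fell from 17.7, 20.1 and 20.95 CPM to 2.57, 3.99 and 5.204 CPM, a log2 fold change of -2.31 ± 0.24 (adjusted p = 0.00035). Among phosphoinositide and diacylglycerol signalling genes, 13 rose and 5 fell of 39 tested. Sgk1, a kinase downstream of phosphoinositide 3-kinase, rose from 26.5, 49.2 and 58.7 CPM to 153, 196 and 183 CPM, by 1.98 ± 0.28 (adjusted p = 0.0014). The diacylglycerol kinase gene Dgkg changed by -1.79 ± 0.52 (adjusted p = 0.035), which did not hold without cMo 0, cMo 1, cMo 2, intMo 1, pMo 1 or pMo 2, with no filter on low counts and with only the 6 libraries in the fit (adjusted p up to 0.0787). Lower calls numbered 1 without cMo 1, intMo 0, intMo 1, pMo 1 or pMo 2, 2 without cMo 2, 3 without cMo 0 or pMo 0, 0 with only the 6 libraries in the fit and 3 with no filter on low counts.

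Among ion channels and solute carriers, 17 rose and 9 fell of 52 tested. Slc12a2, the sodium, potassium and chloride cotransporter, rose from 3.67, 2.18 and 1.8 CPM to 88.1, 53.6 and 65.4 CPM, by 4.76 ± 0.35 (adjusted p = 5.9e-05). Slc40a1, which encodes the iron exporter ferroportin, rose from 19.9, 44.5 and 45.7 CPM to 1042, 557 and 519 CPM, by 4.27 ± 0.45 (adjusted p = 0.00039). All 3 intMo libraries were above all 3 cMo libraries for both genes. Slc22a4, a carrier of the antioxidant ergothioneine, fell from 18.8, 10.1 and 10.5 CPM to 1.98, 2.29 and 2.02 CPM, a log2 fold change of -2.64 ± 0.28 (adjusted p = 0.00039), and the potassium channel subunit gene Kcnab2 from 218, 183 and 150.4 CPM to 43.2, 68.1 and 73.03 CPM, a log2 fold change of -1.58 ± 0.22 (adjusted p = 0.0012).

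Among DNases, RNases and nucleic acid sensors, 7 rose (20%) and 2 fell (5.71%) of 35 tested, against 14% and 10.4% of all genes. The gene of the endolysosomal exonuclease Pld3 changed by 1.796 ± 0.43 (adjusted p = 0.017, log2 fold change 1.17 without intMo 0), a call lost without cMo 0 (adjusted p up to 0.0564). The 2 lower calls, Rnase4 (-1.001 ± 0.27, adjusted p = 0.027) and Rnaseh2a (-0.701 ± 0.19, adjusted p = 0.026), were lost without cMo 1, cMo 2, intMo 0 or intMo 2 and with only the 6 libraries in the fit (adjusted p up to 0.0837) and without cMo 0, intMo 0 or intMo 2, with only the 6 libraries in the fit and with libraries 1 and 2 alone (adjusted p up to 0.0891), respectively. Higher calls numbered 3 without intMo 0, 4 without cMo 0 or intMo 2 and 3 with only the 6 libraries in the fit. They numbered 12 with the library number as a block. Lower calls numbered 0 without intMo 0 or intMo 2 and 0 with only the 6 libraries in the fit. Among autophagy and lysosome biogenesis genes, 9 rose (18%) and 2 fell (4%) of 50 tested, against the same shares of all genes. The lysosomal protease genes Lgmn and Ctsl rose, Lgmn from 79.2, 166 and 210.3 CPM to 905, 445 and 388 CPM, by 1.93 ± 0.43 (adjusted p = 0.013), and Ctsl from 68.6, 56.5 and 73.5 CPM to 263, 193 and 164 CPM, by 1.64 ± 0.19 (adjusted p = 0.00066). Atg7, which activates the conjugation step of autophagy, fell from 91.9, 92.2 and 93.5 CPM to 58.4, 64.98 and 68.8 CPM, a log2 fold change of -0.53 ± 0.11 (adjusted p = 0.0072), and the proton pump subunit gene Atp6v1b2 changed by -0.55 ± 0.15 (adjusted p = 0.031), which was lost without cMo 1, cMo 2, intMo 0, intMo 2, pMo 1 or pMo 2 and with only the 6 libraries in the fit (adjusted p up to 0.102). Lower calls numbered 1 without cMo 1, intMo 2, pMo 1 or pMo 2, 1 with only the 6 libraries in the fit and 4 with libraries 1 and 2 alone.

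Cytoskeletal genes held calls in both directions, the lower ones at about the share of all genes. Of 44 actin and motility genes tested, 11 rose (25%) and 4 fell (9.09%), against 14% and 10.4% of all genes. Their median log2 fold change was 0.0089. Fscn1, the actin bundler fascin that dendritic cells use, rose from 0.684, 0.211 and 0.18 CPM to 34.7, 10.02 and 17 CPM, by 5.82 ± 0.66 (adjusted p = 0.00057, log2 fold change 6.68 without cMo 0 and 5.23 without intMo 0), and Myo1e, a membrane-linked myosin, from 7.38, 4.46 and 2.7 CPM to 52.97, 24.3 and 27.5 CPM, by 2.85 ± 0.46 (adjusted p = 0.003). Vcl, the adhesion protein vinculin, fell from 86.9, 99.4 and 81.6 CPM to 7.51, 27.2 and 29.2 CPM, a log2 fold change of -2.06 ± 0.47 (adjusted p = 0.013), and the actin-capping gene Capg changed by -1.92 ± 0.43 (adjusted p = 0.012). Higher calls numbered 6 without cMo 0, intMo 2, pMo 1 or pMo 2, 7 without cMo 1, intMo 0 or intMo 1, 6 with only the 6 libraries in the fit and 7 with no filter on low counts, and lower calls 7 by DESeq2 and 8 with libraries 1 and 2 alone.

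Markers of other cell types were read for the same libraries. Of 13 macrophage markers tested, 9 rose and 0 fell (0 also at an unadjusted p under 0.05 by edgeR, and 0 by DESeq2). C1qa, the A chain of complement C1q, rose from 6.77, 18.2 and 22.9 CPM to 892, 387 and 376 CPM, by 5.11 ± 0.62 (adjusted p = 0.00082). Mertk, a receptor for dying cells, rose from 4.46, 17.2 and 14.9 CPM to 397, 200.2 and 229.5 CPM, by 4.496 ± 0.49 (adjusted p = 0.00049). The summed level of the whole list was 275, 881 and 961 CPM in cMo and 6952, 4094 and 3893 CPM in intMo, and Cd163 (-0.68 ± 0.68, adjusted p = 0.5) and Folr2 (-0.79 ± 0.46, adjusted p = 0.24) did not pass the test. Cd163 passed it with libraries 1 and 2 alone, as a decrease. Of 14 dendritic cell markers, 9 rose and 1 fell. Ccr7, the receptor for lymph node homing, rose from 1.26, 0.387 and 0.504 CPM to 15.8, 7.22 and 8.68 CPM, by 3.87 ± 0.60 (adjusted p = 0.0024, log2 fold change 4.55 without cMo 0), and Mgl2, a lectin of dendritic cells and macrophages, fell from 45.7, 85.3 and 98.8 CPM to 16.99, 10.8 and 8.55 CPM, a log2 fold change of -2.66 ± 0.38 (adjusted p = 0.0015). The summed dendritic cell markers were 426, 315 and 370.1 CPM in cMo and 479, 506 and 466 CPM in intMo. With libraries 1 and 2 alone, 1 macrophage marker and 2 dendritic cell markers fell.

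Of 18 granulocyte and progenitor markers, 6 fell and none rose (0 at an unadjusted p under 0.05 by edgeR and 0 by DESeq2), with a summed level of 14129.5, 3114 and 3423 CPM in cMo and 789, 5129 and 4847 CPM in intMo. The sum was higher in cMo 0 than in intMo 0, and higher in intMo 1 and intMo 2 than in cMo 1 and cMo 2. The same held for S100a8 and S100a9, genes of the neutrophil protein calprotectin, whose sum was 4473, 832 and 1052 CPM in cMo and 172, 2507 and 2234 CPM in intMo. With libraries 1 and 2 alone, 10 markers rose and 7 fell, and without cMo 0 the numbers were 1 and 2. The number that fell was also 2 with no filter on low counts or with only the 6 libraries in the fit, and it was 3 with the library number as a block. The part of granulocyte and progenitor RNA in the changes of Mpo, Elane, Prtn3, Ctsg, Mmp8, Slpi and Myb was not tested.

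Of 10 lymphoid markers tested, 6 rose and none fell (0 at an unadjusted p under 0.05 by edgeR and 0 by DESeq2), at summed levels of 40.6, 21.97 and 24.4 CPM in cMo and 108, 65.1 and 61.95 CPM in intMo. Cd8a rose from 1.01, 0.844 and 0.828 CPM to 16.6, 17.5 and 15.2 CPM, by 4.195 ± 0.26 (adjusted p = 2.2e-05), and Cd4 from 0.072, 0.527 and 0.576 CPM to 32.3, 5.31 and 6.17 CPM, by 5.195 ± 1.02 (adjusted p = 0.0074, log2 fold change 3.86 without intMo 0). Both are also found on some myeloid cells. The B cell gene Pax5 had 4 counts in cMo and 0 in intMo, while the B cell genes Cd79b and Ms4a1 had 1497 and 75 in cMo and 2012 and 135 in intMo. The T cell receptor genes Cd3e and Cd3g had 0 counts in cMo and 16 and 17 in the 3 intMo libraries together. Trbc2, another T cell receptor gene, had 2 counts in cMo and 66 in intMo, and Il7r had 124 and 803. The tested markers that went the other way were Nkg7, with 504 and 140 counts, and Cd79a, with 41 and 14. A lower call appeared without cMo 2. Of 7 erythroid, platelet, mast cell and eosinophil markers tested, 1 rose and 1 fell, and Hba-a1 had 0 counts in all 6 libraries. With the library number as a block, 0 of these markers fell. The number that rose was 0 without cMo 2 or intMo 0, 0 with a filter at 1 CPM and 2 with libraries 1 and 2 alone, and the number that fell was 0 without cMo 0, cMo 2, intMo 0, intMo 1, intMo 2 or pMo 2, 0 with no filter on low counts or with only the 6 libraries in the fit and 2 with libraries 1 and 2 alone. The part of RNA from macrophages, dendritic cells or lymphoid cells in the changes reported above was not tested.

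**Figure D5:**
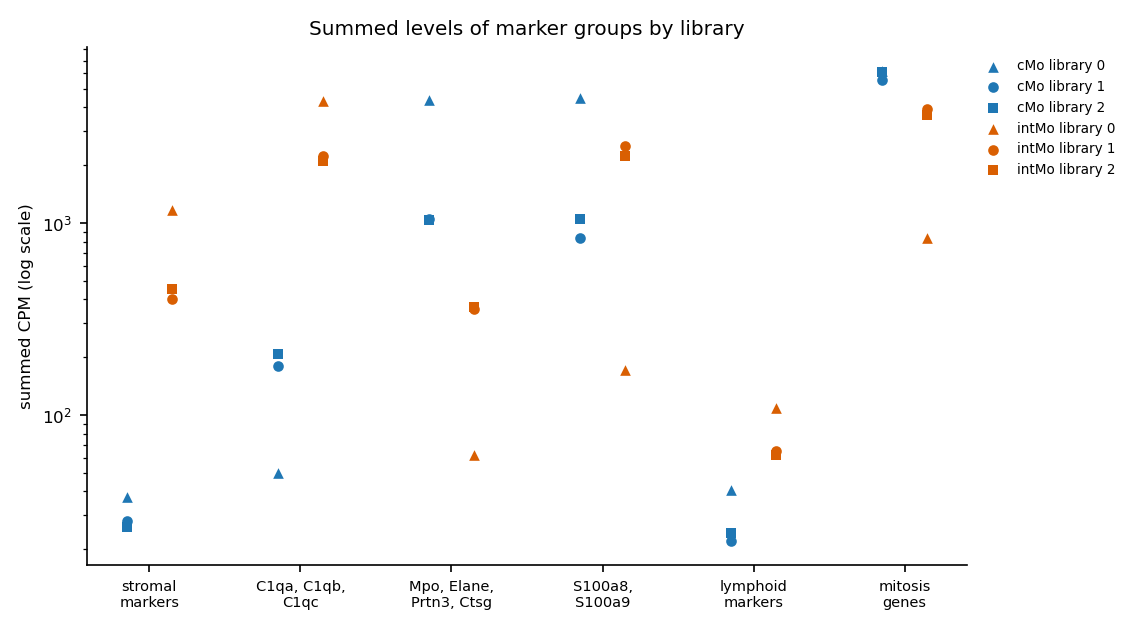
Summed CPM (log axis) of 6 groups of genes in each of the 6 libraries, with cMo in blue, intMo in orange and triangles, circles and squares for libraries 0, 1 and 2. Stromal markers are shown without Fn1 and Igfbp4. Stromal markers, C1q genes and lymphoid markers are higher and azurophil granule and mitosis genes lower in every intMo library, while S100a8 and S100a9 are lower in intMo for library 0 and higher for libraries 1 and 2.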

How the data were processed

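Libraries were made from RNAzol-extracted RNA with a stranded mRNA kit, per the labels' protocols. The values are estimated counts of each gene, deposited by the authors and made with kallisto 0.46.1 and mm10 per the submitters' processing notes. Neither annotation nor strand setting nor the step from transcripts to genes is given in the sources used here, so overlapping, antisense and near-identical genes are uncertain. Gene IDs matched GENCODE M21 (GRCm38) for 46005 of 46517 rows, and 512 did not match. Totals over the 6 libraries set the depth.

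Counts were rounded, filtered with filterByExpr and scaled by TMM, and all 9 libraries were fitted by subset with edgeR 4.0.16 (R 4.3.3, robust quasi-likelihood F test). The call was an adjusted p under 0.05 (Benjamini-Hochberg, 14059 genes). The steps were tested on simulated data. Alternatives were RLE and upper quartile scaling, no filter, at least 1 CPM in 3 libraries, DESeq2 1.42.0, only the 6 libraries, a replicate block, each library left out, and libraries 1 and 2 alone.

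The named genes are the 5 label markers, the 12 largest changes each way (called, mean of at least 20 CPM, no overlap) and the 5 largest gains and losses of share (called, no overlap). Unnamed gene models were left out of these rankings. Per list, the 2 largest called changes (mean of at least 5 CPM, no overlap) are named, plus up to 2 in the opposite direction. The members, the 44 lists and this rule were chosen with earlier results of these data known. Promoter windows come from RefSeq (GRCm38.p6). TCACNCCAC stood in 0 of 16 windows of called sterol genes and an NF-kB motif in 0 of 17 of called feedback genes, against 1.05% and 0.356% of all windows. Over all tested members each stood in 1 window, of Hmgcs1 and Nfkbia, which were not called. Some genes that the rule names, and 1 list, are not reported here. All 23 tabled genes of a noncoding RNA list were listed at 0.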

Additional observations from a re-analysis of the deposited data

How the results depend on the processing

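Under the 17 alternatives no called gene of those named changed sign (Tnf, not called, ran from -0.344 to 0.113 with 1 library left out), and the number of genes called higher stayed within 1.5 times that of the reported fit, from 1431 with only the 6 libraries in the fit to 2280 by DESeq2. The number called lower was 782 with only the 6 libraries in the fit, 1265 with upper quartile scaling and 1958 by DESeq2. With 1 of the 9 libraries left out it ran from 832 to 1357, and the number called higher ran from 1492 to 1932. With libraries 1 and 2 alone, 2242 genes (15.8%) were higher and 1694 (11.9%) lower, and 2874 of the 3433 calls were shared. Of 139 named genes, 36 lost their call under at least 1 alternative, and 2 genes not called in the reported fit were called under another. No scaling moved the median of all genes tested by over 0.1.

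Deviations from the subset means correlated at 0.0657, -0.143 and -0.0694 between cMo and intMo libraries of the same number. Not every library correlated best with its own number. Such values cannot show whether equal numbers share a culture, animal or batch, which the sources used here do not state. Between intMo and pMo libraries of the same number the values were 0.588, 0.3 and 0.274, and between cMo and pMo libraries 0.179, -0.0156 and 0.23. A fit with the replicate number as a block called 2090 genes higher and 1560 lower, and 3114 of the 3433 calls were shared. Under the block the calls were lost for Mpo (adjusted p = 0.0771), Elane (0.0561), Prtn3 (0.0573), Cd74 (0.051), Adgrg3 (0.119) and Rara (0.0524) and, among the genes named after their values were seen, for Srebf2 (0.0595), Mcm5 (0.0563), Mcm7 (0.0621) and Il10 (0.0528). Under the block, higher calls among DNases, RNases and nucleic acid sensors numbered 12. Blocked lower calls numbered 3 for axon guidance genes, 3 for granulocyte and progenitor markers, 2 for mitosis genes, 2 for clock genes, 1 for cholesterol efflux genes and 0 for nuclear receptors and for erythroid, platelet, mast cell and eosinophil markers. No other list count moved by over 1.5 times under the block.

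Depth limits genes near 0 counts in 1 subset, whose folds are bounds or ratios. Intervals and floors reflect counting error alone. With 3 libraries a subset, 1 of them apart from the rest in both, the number of decreases called depends on which libraries enter.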

Other observations

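Chromatin, clock, cell cycle control and amino acid genes held calls in both directions, beside 14% higher and 10.4% lower among all genes. The higher and lower shares were 18.9% and 17% for chromatin regulators and 16.7% and 5.56% for clock genes. They were 16.1% and 19.4% for cell cycle control genes and 21.1% each for amino acid genes. Of 53 chromatin regulators, 10 rose and 9 fell. The DNA methyltransferase gene Dnmt3a rose from 32.7, 29.4 and 20.2 CPM to 136, 67.8 and 94.9 CPM, by 1.86 ± 0.27 (adjusted p = 0.0015), and the chromatin protein gene Hmgb3 changed by -1.87 ± 0.53 (adjusted p = 0.032), which was lost without cMo 0, cMo 2, intMo 2 or pMo 1, with no filter on low counts and with only the 6 libraries in the fit (adjusted p up to 0.0927). Higher calls numbered 4 without cMo 2, intMo 0 or intMo 2, 6 without pMo 1 or pMo 2 and 5 with only the 6 libraries in the fit, and lower calls 4 without cMo 0 and 4 with only the 6 libraries in the fit. Of 31 genes of cyclin-dependent kinase control and p53, 5 rose and 6 fell. E2f2, a factor of S phase entry, fell from 215, 242 and 157 CPM to 31.1, 75.2 and 93.1 CPM, a log2 fold change of -1.62 ± 0.35 (adjusted p = 0.01), and Ccnd1, which encodes cyclin D1, rose by 1.76 ± 0.41 (adjusted p = 0.016), a call lost without cMo 2 (adjusted p up to 0.0522). Higher calls numbered 3 without cMo 1 or intMo 2 and 9 with libraries 1 and 2 alone.

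Of 19 genes of arginine, tryptophan and polyamine metabolism, 4 rose and 4 fell. The amino acid oxidase gene Il4i1 rose from 2.23, 2.92 and 3.13 CPM to 32.01, 15.4 and 15.9 CPM, by 2.93 ± 0.30 (adjusted p = 0.00031), and the spermidine synthase gene Srm fell from 94.6, 29.3 and 28.3 CPM to 14.2, 12.3 and 13.4 CPM, a log2 fold change of -1.94 ± 0.45 (adjusted p = 0.015, log2 fold change -1.12 without cMo 0). Of 18 circadian clock genes, 3 rose and 1 fell, and 2 fell with the library number as a block. The clock output factor gene Tef rose from 15.8, 19.9 and 13.5 CPM to 63.6, 29.3 and 40.4 CPM, by 1.44 ± 0.31 (adjusted p = 0.011). Higher clock calls numbered 1 without cMo 1, cMo 2, intMo 0, intMo 2, pMo 1 or pMo 2 and 1 with no filter on low counts or with only the 6 libraries in the fit, and lower clock calls 0 without cMo 0, cMo 1, cMo 2, intMo 2, pMo 0, pMo 1 or pMo 2, 0 with upper quartile scaling, with no filter on low counts, with a filter at 1 CPM or with only the 6 libraries in the fit and 2 by DESeq2. Of 13 mitochondrially encoded genes, none rose (0 at an unadjusted p under 0.05 by edgeR and 0 by DESeq2) and 1 fell, mt-Nd1 (-0.62 ± 0.17, adjusted p = 0.029), whose call was lost without cMo 0, cMo 2, intMo 0, intMo 1 or intMo 2 (adjusted p up to 0.0816). Lower mitochondrial calls numbered 0 without cMo 0, cMo 2, intMo 0, intMo 1 or intMo 2, 2 without pMo 0 and 4 with libraries 1 and 2 alone. Of 4 sex-linked genes tested, Uty was called higher (0.68 ± 0.20, adjusted p = 0.035), which was lost without cMo 0, cMo 1, intMo 1, intMo 2, pMo 1 or pMo 2 and with only the 6 libraries in the fit (adjusted p up to 0.097), and Y-linked genes were present in all 6 libraries. 2 calls were made without cMo 2. The single long noncoding gene named by the rule, Zfas1, held 47.3, 39.9 and 50.1 CPM in cMo and 60.5, 80.6 and 65.2 CPM in intMo, a change of 0.59 ± 0.15 (adjusted p = 0.022) that was lost without cMo 1 or intMo 1 and with only the 6 libraries in the fit (adjusted p up to 0.0666).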
